A study of Mus musculus with 6 samples.

Results

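DEAD-box (Ddx) and DEAH-box (Dhx) proteins are RNA helicases, enzymes that use ATP to open RNA duplexes or to strip proteins from RNA. In the nucleolus they fold and unfold the ribosomal RNA precursor during ribosome assembly, in the nucleus they drive the rearrangements of the spliceosome and the export of mRNA, and in the cytoplasm they act in translation initiation and mRNA decay. Maturing red cell precursors cut back the making of ribosomes and pack their cytoplasm with hemoglobin, so the RNA-handling machinery is reshaped while a few mRNAs come to dominate. The genes described here are those whose symbol begins with Ddx or Dhx followed by a digit, except Ddx58 and Dhx58, with the transcript of highest mean count standing for each gene. The count data held 50 such genes with 71 RefSeq transcripts, out of 23896 genes in all. Of the 50, 49 passed the filter on low counts, among 12381 tested genes. Ddx4, a germ cell helicase, had between 3 and 8 counts per library and was not tested, and Ddx60 was not analysed here.

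The RNA came from MEL cells, mouse erythroleukemia cells arrested as proerythroblasts, and was sequenced as strand-specific, poly(A)-selected mRNA. The cultures were untreated at day 0 and had grown with 2% DMSO, which induces terminal erythroid differentiation, for 2 or 4 days. Each day had 2 biological replicates, which gives 6 libraries. All come from 1 leukemic line, and no cultures grown for the same time without DMSO are among them, so time in culture and DMSO cannot be told apart. The counts on transcripts summed to between 35294930 and 53899476 per library. The summed level of 10 erythroid markers rose from 1624 and 1615 TPM (length-scaled counts that sum to 1000000 in a library) at day 0 to 57424 and 62729 at day 4. Most of the day 4 sum was Hba-a1, at 34514 and 39433 TPM, and Hbb-bs, at 19493 and 19539. Of the 10 markers, 9 were higher and 1, Klf1, was lower at day 4 at an edgeR adjusted p below 0.05. Klf1 went from 286 and 444 TPM to 278 and 269. The summed level of 6 myeloid markers went from 128 and 150 TPM to 23.5 and 19.8. At day 0 most of it was Spi1, at 111 and 130 TPM, which went to 13.1 and 7.86. Mpo, Csf1r, Elane and Itgam were at most 0.735 TPM in any library. The 4 megakaryocytic markers summed to 365 and 308 TPM and then 433 and 471, but did not move together. Pf4 fell from 222 and 159 TPM to 42.7 and 36.5. Itga2b rose from 138 and 145 to 381 and 424, and Gp1ba and Gp9, at most 5.85 TPM, were also higher. Mast cell markers (3 genes) summed to 6.32 and 6.79 TPM at day 0 and to 0.068 and 0.037 at day 4, where Cpa3 had 0 and 1 counts. The 4 T cell markers summed to 65.8 and 53.0 TPM and then 2.11 and 0.46, all but a trace of it Thy1, with Cd8a at 0 in every library. The 4 fibroblast markers summed to at most 1.18 TPM and the 4 B cell markers to at most 0.25 in any library, with Dcn and Pax5 at 0. The part of these other cell type markers in the helicase results was not tested. Since these are bulk libraries, fewer cells of a type and less RNA per cell cannot be told apart.

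At day 2, most helicase genes that changed had fallen. Of the 49 tested genes, 34 were called against day 0 at an edgeR adjusted p below 0.05, 27 lower and 7 higher, where 62.5% of all tested genes were called, 31.5% lower and 31.0% higher. The share of helicase genes that were lower was thus 55.1%. Calls with a change of at least 2-fold numbered 11, against 23.2% of all genes. The median log2 fold change was -0.44 over the 49 genes and 0.01 over all tested genes. With libraries scaled by their total counts alone, which moved the median of all genes up by 0.20, 36 were called, 23 lower and 13 higher. On that scale 63.7% of all tested genes were called, 23.3% lower and 40.4% higher.

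From day 2 to day 4, fewer helicase genes moved. The call count was 13, with 7 lower and 6 higher, against 30.3% of all tested genes, 16.2% lower and 14.0% higher. The 13 calls make 26.5% of the helicase genes. The median log2 fold change was -0.04, against -0.0046 over all genes. These second-step calls were sensitive to single libraries: without day 2 replicate 1 or without day 4 replicate 2 edgeR called 0, although 9 had an unadjusted p below 0.05 in each case, and without day 2 replicate 2 or day 4 replicate 1 it called 3 and 5. The share of all genes called in these fits also dropped, to 7.57%, 11.6%, 13.1% and 21.3% in that order. None of the second-step calls given here was therefore made in every such fit. DESeq2, run on all 6 libraries, called 14, and 30.7% of the tested genes that had an adjusted p. A change of at least 2-fold was called for 1 member, Ddx25, against 5.94% of all genes. A fit of only these 2 days called 23 members and 45.0% of all genes. With total counts as the scale, 14 were called, 11 lower and 3 higher, against 30.4% of all tested genes, 20.5% lower and 9.92% higher.

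Over the whole course, 37 of the 49 genes differed between day 4 and day 0, 29 of them lower and 8 higher. Among all tested genes 71.8% were called, 36.4% lower and 35.5% higher, so the helicases were called about as often as other genes and 59.2% of them were lower. The median was -0.47 for the helicases and -0.02 for all genes. Changes of at least 2-fold were found for 13 members, 26.5% of those tested, against 35.6% of all genes, and 11 of the 13 were falls. Read over both steps, 5 members were lower in each (Ddx1, Ddx10, Ddx21, Ddx39a and Dhx15), against 9.05% of all genes, and 3 were higher in each (Ddx5, Ddx17 and Dhx34), against 8.33%. Another 20 were lower in the first step with no call in the second, against 20.8% of all genes, and 2, Ddx54 and Dhx38, were lower and then higher, where 3.86% of all genes were called in opposite directions. The plot of changes by member shows them by role group.

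**Figure D1:**
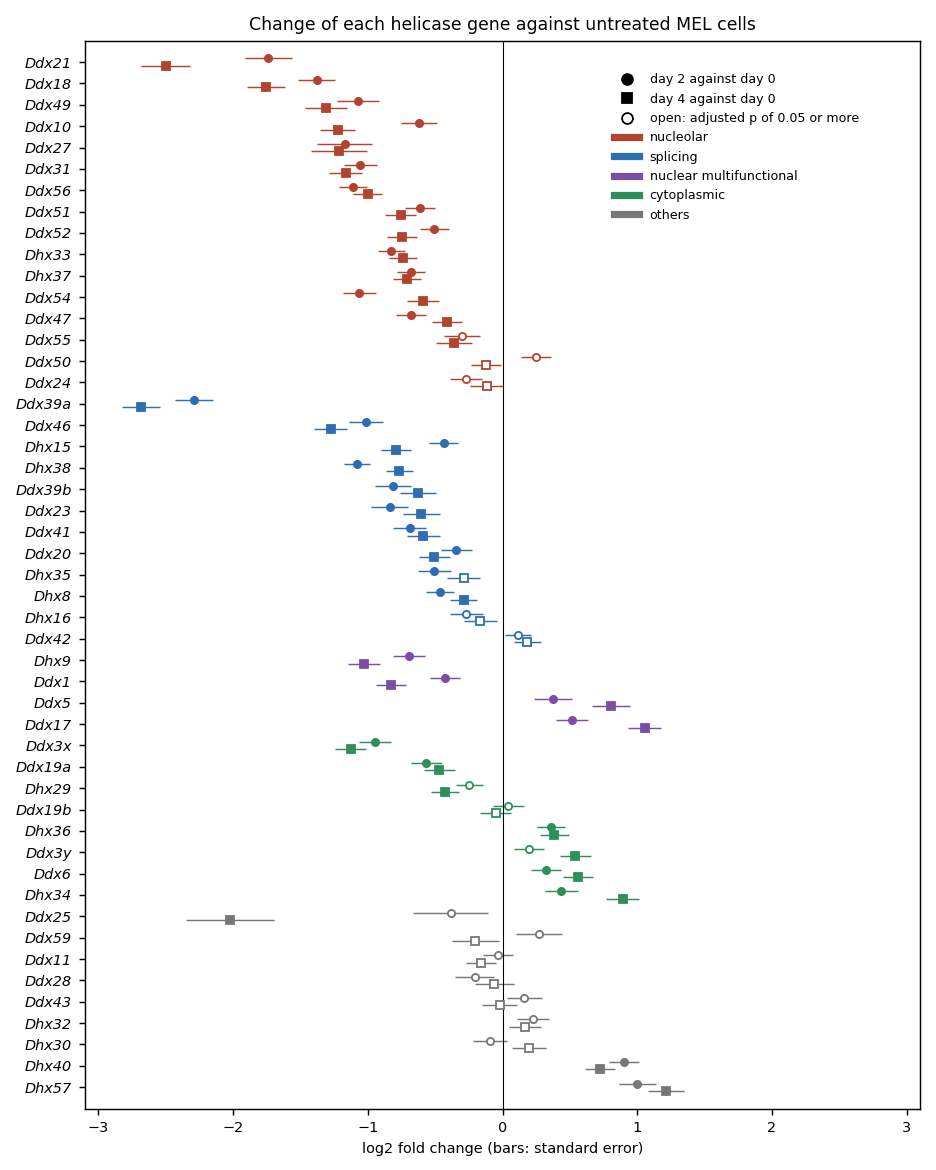
Log2 fold change against day 0 of each of the 49 tested helicase genes (rows), with standard errors as bars, for day 2 (circles) and day 4 (squares). Filled symbols had an edgeR adjusted p below 0.05, and colours mark the role groups. The 16 nucleolar genes reach from -2.50 to -0.12 at day 4, while the nuclear multifunctional and cytoplasmic groups lie on both sides of 0.

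The difference between the 2 steps was tested directly, as the change from day 2 to day 4 minus the change from day 0 to day 2. It was called for 23 members, 20 with the second step higher than the first and 3 with it lower. All 20 had been called lower in the first step, and they were 10 nucleolar and 8 splicing genes with Ddx3x and Ddx19a. The 3 were Ddx50, Dhx40 and Dhx57. Over all tested genes 30.0% were called, 13.1% higher and 16.9% lower. With total counts as the scale 17 were called, 10 higher and 7 lower. On that scale 35.4% of all tested genes were called, 7.01% higher and 28.4% lower. Both steps rest on the day 2 libraries, and without day 2 replicate 1 the count was 4, without day 2 replicate 2 it was 5, and without day 4 replicate 1 it was 14, where 6.38%, 7.31% and 21.4% of all genes were called.

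Most nucleolar helicases fell. The group was set from general knowledge of ribosome assembly and holds 16 genes, all tested. At day 2, 13 were lower and 0 higher by edgeR, and at day 4, 14 were lower and 0 higher, where 31.5% and 36.4% of all tested genes were lower. DESeq2 also called 0 higher on both days, and at an unadjusted p below 0.05 there was 1 higher at day 2, Ddx50, and 0 at day 4. Total counts as the scale gave 13 lower at day 2, with 1 higher, and 13 lower at day 4. On that scale 23.3% and 32.4% of all tested genes were lower. The median log2 fold change was -0.75 at both days.

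Ddx21, which acts in ribosomal RNA transcription and processing, had the highest level per length of the nucleolar group at day 0. At day 4 its mean of 56.0 TPM was below those of Ddx24 (113) and Ddx47 (96.1). Its transcript (NM_019553, chromosome 10 from 62580247 to 62602298 of GRCm38) gave 526 and 698 library-scaled counts (CPM, counts per 1000000 of the TMM-scaled library) at day 0, 190 and 177 at day 2, and 126 and 91.0 at day 4. The days did not overlap, and each was lower than the one before. The log2 fold change was -1.74 in the first step (edgeR adjusted p = 1.07e-05, standard error (SE) 0.17) and -0.76 in the second (edgeR adjusted p = 0.00772, SE 0.17), and the steps differed by 0.98 (edgeR adjusted p = 0.0323). Over 4 days the fall was -2.50 (edgeR adjusted p = 4.89e-07, SE 0.18).

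Ddx18, needed for processing of the ribosomal RNA precursor, had 67.1 and 87.4 CPM at day 0, 30.2 and 29.3 at day 2, and 24.2 and 21.6 at day 4. The fall was called in the first step, at -1.38 (edgeR adjusted p = 9.98e-06, SE 0.14), and the second gave -0.38 with an edgeR adjusted p of 0.06, which passed with total counts (0.0268), with no filter (0.0186) and in a fit of only the 2 days (0.0054). Over the whole course it fell by 1.75 on the log2 scale (edgeR adjusted p = 9.75e-07). Of the 32-base words of its transcript, 72.3% also occur in transcripts of other genes, 67.8% in Gm16433, so reads of such copies could be counted with it and its level is uncertain.

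Ddx10, a helicase of early small-subunit assembly, fell in both steps. It had 66.8 and 77.9 CPM at day 0, 51.2 and 43.1 at day 2, and 33.4 and 28.7 at day 4, with no overlap between days. Its log2 fold changes were -0.62 (edgeR adjusted p = 0.00177, SE 0.13) and -0.61 (edgeR adjusted p = 0.00652, SE 0.13), and the difference between them was 0.01 (edgeR adjusted p = 0.97, SE 0.23).

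Ddx49, another pre-rRNA processing factor, had 50.7 and 72.5 CPM at day 0, 28.7 and 29.8 at day 2, and 24.2 and 25.5 at day 4. The day 0 libraries lay above the rest and apart from each other, and the log2 fold change at day 4 was -1.31 (edgeR adjusted p = 1.93e-05, SE 0.16). On the opposite strand, 874 bases of its exons, 40.9% of the transcript, overlap Homer3. Transcripts lying wholly opposite strongly counted ones had next to no counts, such as Msmp with 0 counts per kilobase opposite Rgp1 with 617, so reads were assigned by strand in these regions.

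Ddx54, a nucleolar helicase that also binds nuclear receptors, went down and then up. Its libraries gave 111 and 137 CPM at day 0, 57.3 and 61.5 at day 2, and 86.0 and 79.1 at day 4, so that day 2 was below both other days without overlap. The first step was -1.06 (edgeR adjusted p = 2.6e-05, SE 0.12) and the second 0.47 (edgeR adjusted p = 0.0134, SE 0.12), and at day 4 it was still 0.59 lower than at day 0 on the log2 scale (edgeR adjusted p = 0.00102). Without any single day 2 or day 4 library the second-step call was lost, with edgeR adjusted p from 0.0512 to 0.159.

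Ddx50, the paralog of Ddx21, did not follow it. It had 56.5 and 62.2 CPM at day 0, 75.2 and 65.9 at day 2, and 56.0 and 53.0 at day 4. The day 2 libraries were the highest, with a log2 fold change of 0.25 against day 0 that missed the threshold (edgeR adjusted p = 0.0703, but 0.00458 with total counts and 0.0248 without day 0 replicate 2) and a fall of 0.37 on the log2 scale to day 4 (edgeR adjusted p = 0.0271). It shares 31.9% of its 32-base words with other transcripts, most with Gm8228, and its level is uncertain for that reason.

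The other nucleolar members were Ddx24, Ddx27, Ddx31, Ddx47, Ddx51, Ddx52, Ddx55, Ddx56, Dhx33 and Dhx37. Apart from Ddx24, each of these was lower at day 4, with log2 fold changes from -1.21 for Ddx27 to -0.36 for Ddx55. The replicates of Ddx27 at day 0 stood far apart, at 61.1 and 105 CPM, both above the later libraries, which ran from 32.7 to 39.0. Ddx24, at -0.12 (edgeR adjusted p = 0.393), was not called at any step, although its day 2 value was called by DESeq2 (0.0408), with RLE factors (0.0464) and without day 0 replicate 1 (0.00225), and its day 4 value without that library (0.0284). Calls of Ddx47 and Ddx55 at day 4 were lost without day 4 replicate 2, where the log2 fold changes were -0.35 and -0.21. That of Ddx55 was also lost with total counts (edgeR adjusted p = 0.132) and in a fit of only the 2 days compared (0.0572).

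Splicing helicases fell in the first step and then largely stayed. This group has 12 genes, all tested, of which 10 were lower at day 2 and 9 at day 4, against 31.5% and 36.4% of all tested genes. From day 2 to day 4, 2 were lower and 1 higher, against 16.2% and 14.0%. Median log2 fold changes were -0.60 at day 2 and -0.59 at day 4, with 0.10 between these days. No member rose against day 0 by edgeR or DESeq2, and 0 were higher at an unadjusted p below 0.05. Total counts as the scale called 7 lower and 1 higher at day 2 and 8 lower and 1 higher at day 4. The higher gene was Ddx42 in both. On that scale 23.3% of all tested genes were lower and 40.4% higher at day 2, and 32.4% and 39.7% at day 4.

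Ddx39a and Ddx39b encode closely related helicases that act in mRNA export. Ddx39a (NM_197982, chromosome 8 from 83715177 to 83726904) had 513 and 404 CPM at day 0, 89.0 and 98.8 at day 2, and 73.8 and 69.0 at day 4. Every day lay below the one before it, and the drop of the first step was the largest of any tested member. The log2 fold change was -2.29 at day 2 (edgeR adjusted p = 3.94e-07, SE 0.14) and -2.68 at day 4 (edgeR adjusted p = 6.73e-08, SE 0.14). The second step, at -0.40, was close to the threshold (edgeR adjusted p = 0.0445) and crossed it with a replicate block (0.0501).

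Ddx39b (chromosome 17 from 35241746 to 35253707) had 626 and 518 CPM at day 0, 302 and 350 at day 2, and 356 and 385 at day 4. Its day 0 libraries stayed above all others. It fell by 0.81 on the log2 scale at day 2 (edgeR adjusted p = 0.000366, SE 0.14), was 0.19 higher at day 4 than at day 2 (edgeR adjusted p = 0.317), and was -0.63 against day 0 at day 4 (edgeR adjusted p = 0.0015).

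Ddx46, which acts in branch-site recognition, had 233 and 290 CPM at day 0, 132 and 127 at day 2, and 108 in both day 4 libraries. All day 0 values were above the later ones, and the log2 fold change at day 4 was -1.28 (edgeR adjusted p = 4.28e-06, SE 0.12). Dhx15, a helicase of spliceosome disassembly that also serves ribosome assembly, had 253 and 273 CPM at day 0, 203 and 186 at day 2, and 157 and 148 at day 4. It was lower in both steps, by -0.44 (edgeR adjusted p = 0.00518) and -0.35 (edgeR adjusted p = 0.0347), with no overlap between days. The first call was lost without day 2 replicate 2 (edgeR adjusted p = 0.0806) and with total counts (0.0856).

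Dhx38, which remodels the spliceosome before the second chemical step, turned like Ddx54. It had 117 and 121 CPM at day 0, 54.1 and 58.3 at day 2, and 70.6 and 69.0 at day 4. The log2 fold change was -1.08 in the first step (edgeR adjusted p = 6.01e-06, SE 0.10) and 0.31 in the second (edgeR adjusted p = 0.0354, SE 0.10). The rise was not called without any single day 2 or day 4 library, with edgeR adjusted p from 0.12 to 0.29, nor with total counts, at 0.117.

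Of the remaining splicing members, Ddx20 of the SMN complex, Ddx23, Ddx41 and Dhx8, the mRNA release helicase, were lower at both days, with day 4 values from -0.60 for Ddx23 to -0.29 for Dhx8. Dhx35 was lower at day 2 (-0.51, edgeR adjusted p = 0.00417) and missed the threshold at day 4 (-0.29, edgeR adjusted p = 0.054), which it passed with RLE factors (0.0415) and without day 0 replicate 2 (0.00619). Dhx16 and Ddx42 were not called at either day, with -0.16 and 0.19 at day 4. Dhx16 was called lower without day 0 replicate 1, at day 2 (0.00195) and day 4 (0.00998), and at day 2 with RLE factors (0.0496). The Ddx20 call at day 2 was lost without day 0 replicate 1 (edgeR adjusted p = 0.0644) and without either day 2 library (0.102 and 0.132). The Dhx35 call at day 2 was lost without day 2 replicate 1 (0.0566), and that of Dhx8 at day 4 without either day 4 library (0.0724 and 0.139). With total counts the calls of Ddx20 (0.312) and Dhx35 (0.0542) at day 2 and of Dhx8 (0.171) at day 4 were lost. A fit of only the 2 days compared also lost the Dhx8 call at day 4 (edgeR adjusted p = 0.0518).

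**Figure D2:**
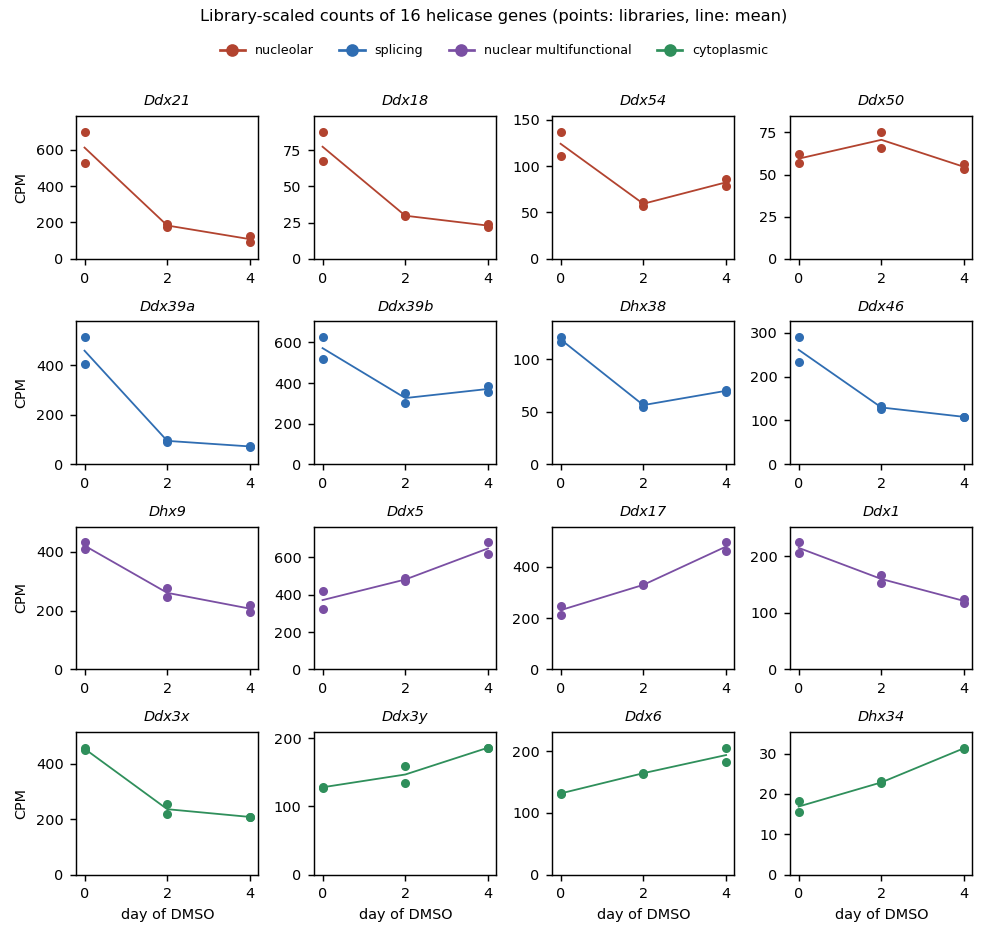
Library-scaled counts (CPM, linear axes from 0) of 16 helicase genes against the day of DMSO treatment, with a point for each library, a line through the day means and colours for the role groups. Ddx39a drops from 513 and 404 CPM to 73.8 and 69.0, Ddx54 and Dhx38 are lowest at day 2, and Ddx5 and Ddx17 are highest at day 4.

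The nuclear multifunctional group split in pairs. Ddx5 and Ddx17, close relatives that act as transcriptional co-regulators and in splicing and microRNA processing, rose, whereas Dhx9, which resolves structured RNA in transcription and processing, and Ddx1, a part of the tRNA ligase complex, fell. All 4 genes were called at day 2 and at day 4, as were 62.5% and 71.8% of all tested genes. The medians of so few genes lie near 0, at -0.03 at day 2 and -0.01 at day 4, and turn sign with the scale, so the genes are given singly.

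Ddx5 (chromosome 11 from 106780355 to 106789185) had 419 and 323 CPM at day 0, 488 and 475 at day 2, and 616 and 681 at day 4. The days did not overlap. The rises of 0.38 and 0.43 on the log2 scale had edgeR adjusted p of 0.0364 and 0.0397, and over the 4 days the log2 fold change was 0.80 (edgeR adjusted p = 0.000359, SE 0.14). The first-step call was lost with RLE factors (0.0509), in a fit of only the 2 days compared (0.0554), without day 0 replicate 2 (0.151) and without either day 2 library (0.164 and 0.124), and the second-step call was lost with total counts (0.0901). Of its 32-base words, 30.7% occur in other transcripts, most in Gm12183.

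Ddx17 (NM_199080, chromosome 15 from 79527696 to 79546764) had 248 and 213 CPM at day 0, 328 and 332 at day 2, and 463 and 495 at day 4. Each day stood above the one before. The log2 fold change was 0.51 in the first step (edgeR adjusted p = 0.00321, SE 0.12), 0.54 in the second (edgeR adjusted p = 0.00694, SE 0.12) and 1.05 over both (edgeR adjusted p = 1.4e-05, SE 0.12). The steps differed by 0.03 (edgeR adjusted p = 0.937, SE 0.21).

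Dhx9 had 432 and 410 CPM at day 0, 276 and 245 at day 2, and 219 and 194 at day 4. It fell by 0.69 on the log2 scale in the first step (edgeR adjusted p = 0.000462, SE 0.12), gave -0.33 in the second (edgeR adjusted p = 0.0541, though 0.0264 with total counts and 0.0254 by DESeq2) and was -1.03 at day 4 (edgeR adjusted p = 1.65e-05). Ddx1 had 224 and 205 CPM at day 0, 166 and 153 at day 2, and 125 and 117 at day 4. It was lower in both steps, at -0.43 (edgeR adjusted p = 0.00572) and -0.40 (edgeR adjusted p = 0.0189), and the first of these calls was lost without day 2 replicate 2 (edgeR adjusted p = 0.0832) and with total counts (0.102).

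Promoters were read to show what sequence members that moved together or apart have in common. RefSeq promoters of GRCm38.p6, from 250 bases before to 50 after each listed start, were found for 45 of the 50 genes. Ddx11, Ddx23, Ddx39a, Ddx6 and Dhx38 had none in the table. A gene was counted as holding a motif where any of its listed starts did. The letters CCGGAAG, an ETS-type element, occurred on either strand in 19 of the 45 (42.2%), against 21.0% of 9680 tested genes with a promoter and 9.93% of all 27025 genes with a promoter. Ddx5, Ddx17, Ddx50 and Dhx30 also have listed starts without these letters. The letters CCGGAAG were in all 4 nuclear multifunctional genes, of which Ddx5 and Ddx17 rose and Ddx1 and Dhx9 fell, and in 8 of 16 nucleolar genes. The letters CACGTG, an E-box of the Myc type, were in 7 of the 45 (15.6%), against 11.7% of tested genes, and in 1 nucleolar gene, Dhx33. The 7 include Ddx4, which was not tested. The letters AGATAA, the element of the erythroid factor Gata1, were in 5 (11.1%), against 8.34%, and in 0 nucleolar genes. None of the 3 motifs contains another, though their ends can share letters. A match is a description of the window and not a site. The windows with CCGGAAG or its reverse complement in capitals are shown for the nuclear multifunctional and nucleolar genes, on the strand of the gene and 5′ to 3′.
Ddx5, chr11:106789003-106789033, minus strand: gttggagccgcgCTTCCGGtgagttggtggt
Ddx17, chr15:79546952-79546982, minus strand: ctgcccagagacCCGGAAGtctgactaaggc
Dhx9, chr1:153487738-153487768, minus strand: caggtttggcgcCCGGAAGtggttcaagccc
Ddx1, chr12:13249181-13249211, minus strand: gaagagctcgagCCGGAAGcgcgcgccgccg
Ddx54, chr5:120613098-120613128, plus strand: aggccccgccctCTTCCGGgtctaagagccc
Ddx50, chr10:62651213-62651243, minus strand: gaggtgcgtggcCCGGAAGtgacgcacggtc
Ddx10, chr9:53248281-53248311, minus strand: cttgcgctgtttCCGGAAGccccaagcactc
Ddx27, chr2:167015299-167015329, plus strand: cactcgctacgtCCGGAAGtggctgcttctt
Ddx47, chr6:135011609-135011639, plus strand: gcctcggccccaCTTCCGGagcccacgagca
Ddx49, chr8:70302461-70302491, minus strand: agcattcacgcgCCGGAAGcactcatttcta
Ddx55, chr5:124552841-124552871, plus strand: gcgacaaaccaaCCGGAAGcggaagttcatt
Dhx37, chr5:125434094-125434124, minus strand: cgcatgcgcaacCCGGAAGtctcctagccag

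Among these 8 nucleolar genes, day 4 changes ran from -1.31 for Ddx49 to -0.12 for Ddx50. Ddx21 and Ddx18, the members of the group that fell most, did not have the letters in their windows.

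Cytoplasmic helicases moved in both directions. Of 8 genes, all tested, 3 were higher and 2 lower at day 2, 2 were higher and 0 lower from day 2 to day 4 (0 lower also by DESeq2 and at an unadjusted p below 0.05), and 4 were higher and 3 lower at day 4. The shares called, 62.5%, 25% and 87.5%, stood beside 62.5%, 30.3% and 71.8% of all tested genes. Lower at day 4 were Ddx3x and Dhx29, which act in translation initiation, and Ddx19a, which acts in mRNA export. Higher were Ddx6, a repressor of translation and activator of decapping, Dhx34, a factor of nonsense-mediated decay, Dhx36, which unwinds guanine quadruplexes, and Ddx3y, the Y-linked copy of Ddx3x. The median log2 fold change was 0.12 at day 2 and 0.17 at day 4.

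Ddx3x (X chromosome from 13280496 to 13293988) had 451 and 458 CPM at day 0, 253 and 219 at day 2, and 208 in both day 4 libraries. All day 0 values were above the later ones. It fell by 0.95 on the log2 scale at day 2 (edgeR adjusted p = 4.58e-05, SE 0.12) and was -1.13 at day 4 (edgeR adjusted p = 6.71e-06, SE 0.12). Ddx3y (Y chromosome from 1260715 to 1286628) had 129 and 127 CPM at day 0, 159 and 135 at day 2, and 186 in both day 4 libraries. It was 0.20 higher at day 2 (edgeR adjusted p = 0.148) and 0.54 higher at day 4 (edgeR adjusted p = 0.00123, SE 0.11). The transcripts can be told apart, since Ddx3y shares 0.744% of its 32-base words with Ddx3x.

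Ddx19a and Ddx19b encode near-identical helicases that release mRNA at the nuclear pore. Ddx19a had 54.7 and 63.5 CPM at day 0, 38.2 and 41.6 at day 2, and 43.6 and 41.9 at day 4, with log2 fold changes of -0.57 at day 2 (edgeR adjusted p = 0.00133) and -0.47 at day 4 (edgeR adjusted p = 0.00332). For Ddx19b the values were 90.1 and 88.5, then 88.9 and 95.1, then 94.1 and 78.4, which overlap between days, and at day 4 it was -0.05 (edgeR adjusted p = 0.699), a sign that turned with total counts. Since 37.3% of the words of Ddx19a are in Ddx19b, the split between them is uncertain.

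Ddx6 had 132 and 131 CPM at day 0, 165 and 163 at day 2, and 182 and 206 at day 4. Each day was above the one before, and the log2 fold change at day 4 was 0.56 (edgeR adjusted p = 0.000724, SE 0.11). The call at day 2, 0.32 (edgeR adjusted p = 0.0228), was lost without either day 2 library (0.122 and 0.103). Dhx34 had 15.6 and 18.2 CPM at day 0, 22.6 and 23.1 at day 2, and 31.3 and 31.5 at day 4. It rose in both steps, by 0.44 (edgeR adjusted p = 0.00894) and 0.46 (edgeR adjusted p = 0.0162), and was 0.89 higher at day 4 (edgeR adjusted p = 5.43e-05). Its call at day 2 was lost without day 2 replicate 2 (edgeR adjusted p = 0.0632).

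Dhx29, which helps the small ribosomal subunit pass structured leaders, had 74.4 and 77.7 CPM at day 0, 64.7 and 63.7 at day 2, and 59.5 and 53.9 at day 4. The fall was called at day 4, at -0.42 (edgeR adjusted p = 0.0031, SE 0.10), the day 2 value being -0.25 (edgeR adjusted p = 0.055). It was called at day 2 by DESeq2 (0.0419), with RLE factors (0.0354) and without day 0 replicate 1 (0.0277). Dhx36 was 0.36 higher at day 2 (edgeR adjusted p = 0.012) and 0.38 higher at day 4 (edgeR adjusted p = 0.00684). Its calls were lost without day 2 replicate 1 (0.124) and without day 4 replicate 1 (0.0732).

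The other tested members were 2 mitochondrial helicases, 1 DNA helicase, 2 germ cell helicases and 4 genes with no role assigned. Ddx28 and Dhx30, which serve the mitochondrial ribosome, and Ddx11, a DNA helicase of sister chromatid cohesion, were not called at any step, with day 4 log2 fold changes of -0.06, 0.20 and -0.16. A fit of only days 2 and 4 called Dhx30 higher (edgeR adjusted p = 0.0125), and its day 4 value was 0.38 without day 0 replicate 1. Dhx40 and Dhx57 rose, to 0.72 (edgeR adjusted p = 0.000136) and 1.21 (edgeR adjusted p = 1.12e-05) at day 4, and the second step was called lower than the first for both. Ddx43, Ddx59 and Dhx32 were not called at any step, although with total counts each was called higher at day 2 (edgeR adjusted p = 0.0313, 0.0356 and 0.0115). The second step of Ddx59 was called lower with total counts (0.0354), no filter (0.0273), a replicate block (0.0447) and in a fit of only the 2 days (0.0219). Without day 0 replicate 1, Dhx32 was 0.37 at day 2 and 0.31 at day 4. Ddx25 was barely present, at 2.06 and 2.20 CPM at day 0, 1.89 and 1.38 at day 2, and 0.72 and 0.35 at day 4. Its fall of -2.02 at day 4 (edgeR adjusted p = 0.0002, SE 0.33) rests on these low counts.

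Levels of different helicases can be compared per transcript length. At day 0 the highest were Ddx39a at 705 and 536 TPM and Ddx39b at 500 and 400, which did not overlap each other or any other member, followed by Ddx21 at 253 and 325 and Ddx23 at 252 and 313, which overlapped each other and Ddx5. At day 4 Ddx5 was first at 427 and 460 TPM, ahead of Ddx39b at 308 and 325, Ddx17 at 241 and 252 and Ddx23 at 198 and 207, none of which overlapped. Ddx39a had moved from the first to the ninth place, at 110 and 100 TPM. There it overlapped Dhx9 at 118 and 103, Ddx3x at 110 and 106 and Ddx47 at 102 and 90.7.

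The summed level of the 50 members went from 4539 and 4375 TPM at day 0 to 3427 and 3397 at day 2 and 3270 and 3203 at day 4. TPM is a share of all transcripts in a library, so these sums are relative levels. The splicing group made up 46.4% and 44.3% of the member total at day 0 and 34.0% and 34.6% at day 4. Without Ddx39a, chosen after its values were seen, the group made up 36.5% in both day 0 libraries and 31.7% and 32.5% at day 4. The nuclear multifunctional group made up 15.6% and 13.5% and then 26.0% and 27.2%, while the cytoplasmic group took 10.5% and 10.8% and then 13.5% and 13.4%. The nucleolar share was 23.7% and 28.0% at day 0 and 20.4% and 18.7% at day 4.

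**Figure D3:**
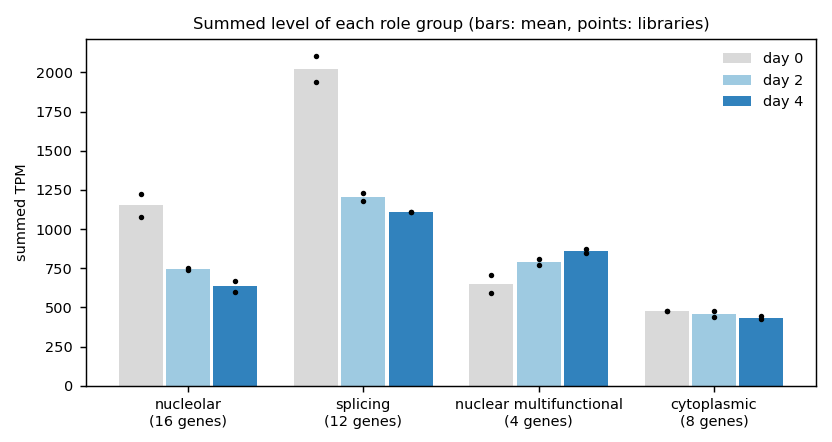
Summed TPM of the genes in each of 4 role groups (bars from 0: mean of the 2 libraries of a day, points: libraries). The splicing sum drops from 2106 and 1938 TPM at day 0 to 1112 and 1109 at day 4, while the nuclear multifunctional sum goes from 708 and 590 to 849 and 872.

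Ratios of paralogs within a library do not depend on how libraries are scaled. Ddx39a stood at 1.41 and 1.34 times Ddx39b in TPM at day 0, at 0.507 and 0.486 at day 2, and at 0.356 and 0.308 at day 4, so the order of the pair turned. The ratio of Ddx21 to Ddx50 was 5.0 and 6.02, then 1.36 and 1.44, then 1.20 and 0.921. Ddx3x to Ddx3y went from 3.42 and 3.53 to 1.56 and 1.59 and then to 1.10 and 1.09. The ratio of Ddx5 to Ddx17 went from 2.24 and 2.02 at day 0 to 1.98 and 1.91 at day 2 and 1.77 and 1.83 at day 4, and that of Ddx19a to Ddx19b was 1.58 and 1.86, 1.12 and 1.14, and 1.20 and 1.39. In all 5 pairs both day 0 ratios lay above every later one. An exact permutation test of 2 libraries against 2 cannot give a two-sided p below 0.333, and the ratios are given as a description.

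**Figure D4:**
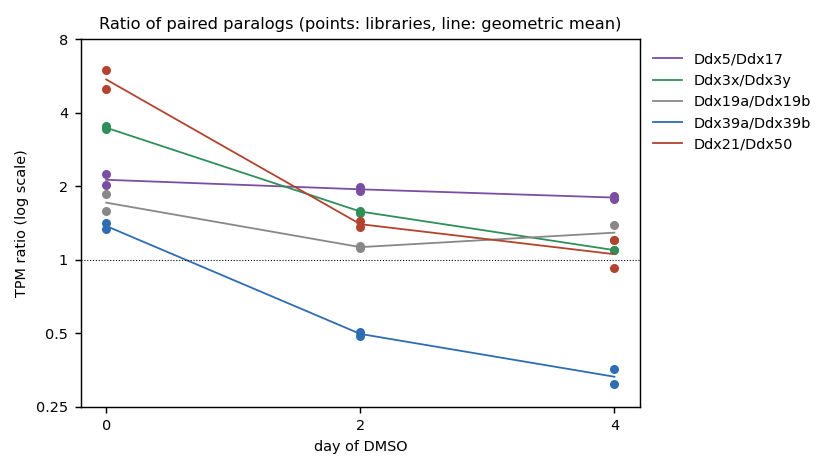
Ratio of the TPM of paired paralogs (log axis) against the day of DMSO treatment, with a point for each library and lines through the geometric means. Ddx39a to Ddx39b crosses 1 between day 0 and day 2, and Ddx5 to Ddx17 stays between 1.77 and 2.24.

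RNA helicases without a Ddx or Dhx symbol, listed from general knowledge, moved in both directions. Of 14 such genes, all tested, 5 were higher and 7 lower at day 2, 4 higher and 1 lower from day 2 to day 4, and 5 higher and 7 lower at day 4. Among all tested genes 31.0% were higher and 31.5% lower at day 2, 14.0% and 16.2% from day 2 to day 4, and 35.5% and 36.4% at day 4. Eif4a1 and Eif4a3, the DEAD-box helicases of translation initiation and of the exon junction complex, had day 4 log2 fold changes of -1.11 (edgeR adjusted p = 2.97e-05) and -0.90 (1.77e-05), while the initiation paralog Eif4a2 had 0.81 (edgeR adjusted p = 0.000157). Snrnp200 and Aqr of the spliceosome were -1.01 and -0.55 (edgeR adjusted p = 1.17e-05 and 0.000799). Mov10 and Znfx1, helicases of RNA silencing and antiviral responses, were higher by 1.53 and 1.13 (edgeR adjusted p = 1.81e-06 and 8.57e-06).

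Partners and cofactors of the helicases, a list of 47 tested genes, fell more often than they rose. The list holds many ribosome assembly factors, such as Bop1, Utp14a, Fbl, Nop58 and Npm1, and each of these factors was lower at day 4. The remaining partners moved in both directions. At day 2, 29 were lower and 7 higher, from day 2 to day 4, 14 were lower and 3 higher, and at day 4, 30 were lower and 9 higher, with a median log2 fold change of -0.67. The shares of all tested genes that were lower in these comparisons were 31.5%, 16.2% and 36.4%. Fbl, Npm1 and Ncl, abundant nucleolar proteins, were -2.22, -1.88 and -1.84 (edgeR adjusted p = 7.22e-08, 7.7e-07 and 8.71e-06), and Pinx1, a G-patch activator of Dhx15, was -2.0 (3.06e-06). Other G-patch genes went both ways at day 4. Gpatch3, Gpatch4, Rbm10, Rbm17 and Nkrf were called lower, from -1.59 for Gpatch4 to -0.50 for Nkrf. Gpatch1, Gpatch2, Gpatch8, Gpatch11, Rbm5 and Zgpat were called higher, from 0.32 for Gpatch1 to 0.92 for Gpatch11. Sugp1, Tfip11, Gpkow and Cmtr1 were not called. Pdcd4, an inhibitor of Eif4a1, was 2.33 higher at day 4 (edgeR adjusted p = 4.65e-08) and 2.49 higher at day 2.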

How the data were processed

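The members, role groups and lists were chosen with earlier results of these data known. The authors trimmed the reads with cutadapt, aligned them to mm10 with TopHat and deposited raw counts per RefSeq transcript, without normalization or pooling of replicates. HTSeq is named in the submitters' processing notes, and its strand and overlap settings and the annotation release are not given in the sources used here. Reads on no feature, 50.5% to 58.4% of a library, were left out. The days and replicate numbers came from the labels.

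Counts were fitted with edgeR 4.0.16 in R 4.3.3, using TMM factors (0.921 to 1.07), filterByExpr by day and 1 quasi-likelihood fit of all 6 libraries with a mean per day. A call was a Benjamini-Hochberg adjusted p, over 18351 transcripts, below 0.05. The SE was the log2 fold change over the root of F. TPM used GENCODE vM21 lengths. The design was 2 libraries per day. The p-values set each change against a spread between these cultures that was estimated over all 6 libraries and moderated across transcripts. Tested on simulated counts for day 4 against day 0 (18351 transcripts), the fit recovered 88.7% of changes of size 1 and 97% of size 2 on the log2 scale, with a median of 15 false calls per draw beside 200 changed transcripts. The simulation changed only these 200, at day 4, and gave transcripts of like level the same spread. In the data 71.8% of tested genes were called for this comparison, so the simulated rates do not carry over to the calls reported.

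Given in every library were the member with the highest mean TPM, the 4 largest called falls and 2 largest called rises of each main role group at day 4, members of 5 paralog pairs, members called in opposite directions at the 2 steps and the largest change of the other groups. Alternatives were DESeq2 1.42.0, RLE factors, total counts, no globin transcripts, no filter, 2-day fits, a replicate block, a limit on size, the second transcript and leaving out each library. Symbols came from RefSeq for 32195 transcripts and from GENCODE for 191, and 268 had none.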

Additional observations from a re-analysis of the deposited data

Results flagged for a closer look

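Ddx54 and Dhx38 were called in opposite directions in the 2 steps of the time course, lower from day 0 to day 2 and higher from day 2 to day 4, as were 3.86% of all tested genes. The change in the second step minus that in the first was 1.54 on the log2 scale for Ddx54 (SE 0.22) and 1.39 for Dhx38 (SE 0.18), and 1.25 and 1.11 with total counts. Both genes were singled out for their opposite calls, and both steps use the day 2 libraries, so these differences are given as a description. The rise in the second step was not called for either gene without any single day 2 or day 4 library.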

How the results depend on the processing

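Under DESeq2, RLE factors, no filter, no globin transcripts, the replicate block and the second transcript of a gene, counts of called members stayed within 1.5 times the reported ones. Correlations of replicate differences between days were 0.0316 to 0.0791, which cannot tell whether the replicate numbers pair the cultures. The labels do not say. For day 2 against day 0, day 4 against day 2 and day 4 against day 0 the block gave 34, 14 and 37 calls. It gave 23 for the difference between the steps. It lost the second-step call of Ddx39a and gained those of Ddx59 and Dhx9. Asking also for a change of at least 2-fold left 11, 1 and 13 calls. A fit of only days 2 and 4 gave 23 calls. With 1 library left out, the calls ranged from 28 to 38 for day 2 against day 0, from 0 to 5 for day 4 against day 2, from 34 to 41 for day 4 against day 0 and from 4 to 27 for the difference between the steps. A lone library is then assumed to vary like the other days, and the cause of the loss was not tested.

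Total counts moved the median of all genes by 0.20, -0.08 and 0.12 in the 3 comparisons (day 2 against day 0, day 4 against day 2, day 4 against day 0). Under them the nucleolar medians were -0.55 and -0.17 in the first and second of these, the splicing medians -0.40, 0.018 and -0.48, the nuclear multifunctional medians 0.17, -0.036 and 0.10, all with the sign turned, and the cytoplasmic medians 0.32, -0.022 and 0.28, the -0.022 with the sign turned. The cytoplasmic median of 0.12 at day 2 was 0.0946 with DESeq2 and 0.0912 with RLE factors. With 1 library left out, the nucleolar median ranged from -0.18 to -0.016 for day 4 against day 2. The splicing medians ranged from 0.063 to 0.15 for day 4 against day 2 and from -0.64 to -0.53 for day 4 against day 0. The nuclear multifunctional medians ranged from -0.15 to 0.11, from -0.0074 to 0.10 and from -0.14 to 0.11 in the order above, and the cytoplasmic ones from 0.083 to 0.16 for day 2 against day 0 and from 0.064 to 0.26 for day 4 against day 0. Ddx19b was 0.066 with total counts for day 4 against day 0, and ranged from -0.0026 to 0.092, from -0.23 to 0.029 and from -0.19 to 0.072 with 1 library left out. TPM over 1 transcript per gene was about 1.46 times as high at day 0. Depth limits Ddx25 and Ddx4, which have few counts.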

Other observations

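Of the other tested transcripts of Ddx17, NM_001040187 had nearly the same counts as the leading one in every library (at least 99.99% of them). NM_152806 had 62.3% and 58.9% of the count of the leading Ddx17 transcript at day 0, 66.7% and 66.2% at day 2, and 69.8% and 73.7% at day 4, with no overlap between days, and its log2 fold change at day 4 was 1.30 (edgeR adjusted p = 5.17e-06). NM_199079, with 47.3% and 51.8% at day 0, 46.5% and 46.3% at day 2 and 47.3% and 45.1% at day 4, overlapped between days and had 0.96 (edgeR adjusted p = 9.28e-06). These transcripts share most of their exons, so the counts overlap and the shares were not tested.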
